A study of Mus musculus with 4 samples.

Results

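The regions described here are the m6A peaks that lie in mouse zinc finger genes of obese inguinal white fat. A peak was taken as a member when its midpoint fell within the mm10 span of a protein-coding gene whose symbol is Zfp followed by digits, with or without a letter suffix. By that rule the entacapone list held 1105 such peaks out of 31856, and the vehicle list 895 out of 22860. RefSeq (assembly GRCm38.p6, the assembly also called mm10) has 397 such genes, and 337 of them carried at least 1 peak in either list. The rule used gene names and positions only, not the height or number of the peaks.

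Mice of 1 group received entacapone, a Parkinson's disease drug that has also been reported to block FTO, an eraser of m6A, and mice of the other received vehicle. All groups came from male C57BL/6 mice aged 23 weeks with obesity induced by a high-fat diet, and the tissue was inguinal white adipose tissue. The 4 libraries were an entacapone IP, an entacapone input, a vehicle IP and a vehicle input, with 1 of each, where IP is fragmented poly(A) RNA pulled down with a polyclonal anti-m6A antibody. Whether 1 animal or a pool went into a library is not stated, and neither are dose or duration of treatment. With 1 library per treatment no difference has a replicate check or a test, and each one lies between these libraries, not shown to lie between the treatments.

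N6-methyladenosine (m6A) is a modification of mRNA that is written in the nucleus by a methyltransferase complex, mainly at GGAC-like motifs, and is read by proteins that affect splicing, decay and translation. It is known to be dense in long exons and around stop codons. C2H2 zinc finger proteins are the largest class of mammalian transcription factors. Many carry a KRAB box, which recruits a co-repressor to retroelements and genes, and their fingers are usually encoded together in 1 long terminal exon. Their genes arose largely by tandem duplication and often sit side by side on a chromosome. Zfp36 and its relatives share the symbol but are CCCH proteins that bind mRNA.

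Sequence was readable for peaks that lie over a RefSeq window around an annotated start of transcription (250 bases before to 50 after). In all, 12 member peaks had at least 90% of their bases inside such a window and a known gene strand. The 10 of these with a midpoint within 1 kb of the start of the gene span are shown, because their letters could be read, out of 53 entacapone and 32 vehicle member peaks that near to a start. The letters of Zfp146, Zfp830 and the second Zfp697 peak came from the window of a neighbouring gene. Zfp523 is cut at 28177467, where its window ends, and its peak ran on to 28177477. Letters run 5′ to 3′ on the strand of the zinc finger gene, from the listed start to the listed end, both included. Capitals mark GGAC, the core of the m6A consensus.
Zfp54, shared, chr17:21423231-21423292, plus strand: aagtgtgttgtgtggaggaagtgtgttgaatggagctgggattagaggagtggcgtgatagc
Zfp523, shared, chr17:28177351-28177467, plus strand: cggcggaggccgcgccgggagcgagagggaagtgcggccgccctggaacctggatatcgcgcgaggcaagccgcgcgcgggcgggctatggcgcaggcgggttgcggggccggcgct
Zfp697, entacapone list alone, chr3:98382238-98382334, plus strand: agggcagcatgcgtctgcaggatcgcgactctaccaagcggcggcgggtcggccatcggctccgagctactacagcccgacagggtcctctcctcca
Zfp697, entacapone list alone, chr3:98382489-98382553, plus strand: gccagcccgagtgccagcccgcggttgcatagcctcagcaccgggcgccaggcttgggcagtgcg
Zfp37, entacapone list alone, chr4:62208329-62208404, minus strand: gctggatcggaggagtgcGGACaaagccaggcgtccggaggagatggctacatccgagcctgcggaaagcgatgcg
Zfp687, entacapone list alone, chr3:95015360-95015468, minus strand: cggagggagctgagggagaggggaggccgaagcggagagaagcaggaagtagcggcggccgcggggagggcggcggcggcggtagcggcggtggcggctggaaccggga
Zfp959, entacapone list alone, chr17:55891846-55891907, plus strand: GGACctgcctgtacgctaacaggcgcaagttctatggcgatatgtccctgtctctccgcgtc
Zfp146, entacapone list alone, chr7:30169654-30169703, minus strand: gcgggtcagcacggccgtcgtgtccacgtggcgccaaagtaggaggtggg
Zfp513, entacapone list alone, chr5:31202068-31202183, minus strand: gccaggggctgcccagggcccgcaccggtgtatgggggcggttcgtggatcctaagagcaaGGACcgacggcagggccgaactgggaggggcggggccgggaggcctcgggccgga
Zfp830, vehicle list alone, chr11:82764404-82764470, plus strand: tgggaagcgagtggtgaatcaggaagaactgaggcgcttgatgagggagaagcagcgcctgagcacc

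GGAC was found on the gene strand in 5 of the 12 peaks and on either strand in 7. For comparison, GGAC stood in the last 62 bases, the length of the Zfp54 and Zfp959 peaks, of 22.2% of all 32851 windows on the strand of their gene, and this share was 18.9% to 45.8% over the lengths of the 12 peaks. On either strand it was 33.3% to 70.0%. Neither of the shared entacapone peaks, in Zfp54 and Zfp523, held GGAC in the letters shown. A match or its lack is a description of these letters and shows no methylated site. The Zfp54 peak had a midpoint 34.5 bases from the start of the gene span and a fold of 7.53 in the entacapone list. Its vehicle counterpart ran over 21423227 to 21423302 with a fold of 8.66, and its extra bases on the 3′ side held 1 GGAC. The fold here and below is the authors' value for a peak, read as IP over input. How it was scaled in each list is not stated, so a fold or a limit on it set side by side for the lists need not mean the same enrichment in both. The anti-m6A antibody is also known to recognise the related cap-adjacent base m6Am, so peaks at starts need not be m6A.

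Peaks were also counted over and near the starts of genes. An entacapone peak touched a start window of its own gene in 19 of the 331 zinc finger genes with such a window, and a vehicle peak in 12, with 5 genes common to both. The same count was not made over all protein-coding genes, so these counts have no background beside them. Within 1 kb of the start of the gene span lay 5.92% of the entacapone zinc finger peaks (exact binomial 95% interval 4.47 to 7.67) and 4.49% of the vehicle ones (3.09 to 6.28), among peaks of genes with a known strand. In the other protein-coding genes these shares were 11.5% of the entacapone list and 9.85% of the vehicle list. The intervals cover counting error only, and peaks of 1 gene are not independent of each other.

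Zinc finger genes were widely marked in both lists. An entacapone peak was present in 326 of the 397 genes (82.1%) and a vehicle peak in 313 (78.8%). Over all protein-coding genes 49.1% had an entacapone peak and 40.2% a vehicle peak. Both lists shared 302 zinc finger genes, while 24 were marked by entacapone peaks alone and 11 by vehicle peaks alone. The contrast was present among genes of like length: with spans from 12.2 to 29.2 kb, the quartiles of the zinc finger spans, 82.9% of 199 zinc finger genes had an entacapone peak and the same share a vehicle peak, against 54.1% and 43.8% of 5032 other genes. How abundant each transcript was could not be set beside these counts, since the input counts carry identifiers not paired with symbols in the tables used here, so the part of RNA level in the contrast was not tested.

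Most marked zinc finger genes carried several peaks. A marked gene had 3.39 entacapone peaks on average and 2.86 vehicle peaks, against 2.62 and 2.32 in the other marked protein-coding genes. At least 3 peaks were present in 196 of the 397 zinc finger genes in the entacapone list and in 152 in the vehicle list, and at least 6 in 46 and 21. Over all 21887 protein-coding genes, 4236 and 2871 had at least 3 peaks, and 888 and 511 at least 6. The highest number in a zinc finger gene was 12 in each list, in Zfp646 for entacapone and in Zfp608 for vehicle. Longer genes did not hold clearly more peaks: across the 397 genes the rank correlation of span with peak number was 0.079 for entacapone and 0.077 for vehicle, a description over genes that share a library. The number of peaks in the lists went together across the same genes with a rank correlation of 0.796, against 0.817 in the other protein-coding genes. Among the 337 marked zinc finger genes alone it was 0.696.

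**Figure D1:**
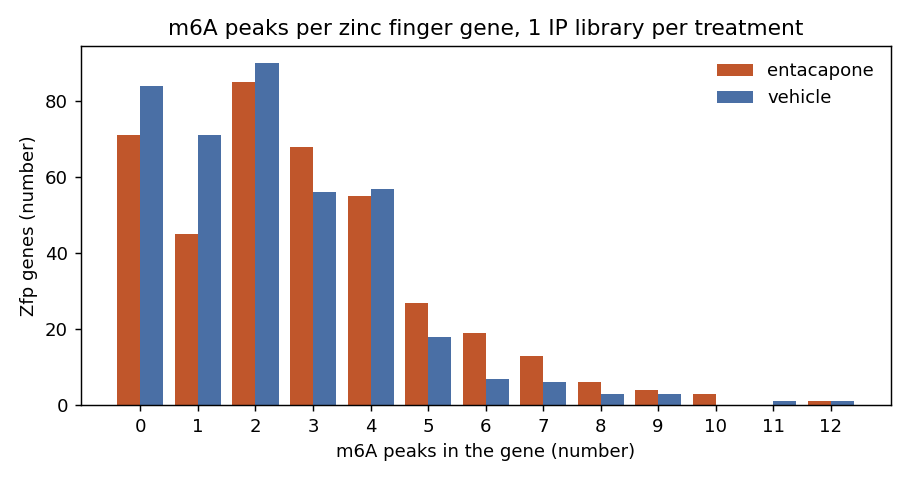
Number of zinc finger genes (vertical axis) by the number of m6A peaks they carry (horizontal axis), in the entacapone list (orange, left bars) and the vehicle list (blue, right bars), 1 library each. The entacapone bars are lower at 0 and 1 peaks (71 and 45 genes, against 84 and 71 in vehicle) and at 2, 4 and 11 peaks. They are higher at 3 peaks and from 5 peaks to 10.

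In the 12 genes with most peaks over both lists, most peaks overlapped the other list. Over all zinc finger peaks the overlapping share was 65.4% for entacapone and 82.0% for vehicle. A choice by the total over both lists favours genes with peaks in both. Zfp646 had 12 entacapone and 9 vehicle peaks within a span of 9083 bases on chromosome 7, with 11 and 9 of them overlapping the other list. Zfp318, which controls the choice between IgM and IgD transcripts in B cells, had 10 entacapone and 11 vehicle peaks, of which all 10 and 10 overlapped. The remaining Zfp318 peak was in vehicle alone at 46402782 to 46402855 on chromosome 17, with a fold of 2.84. Zfp608 had 10 and 12 peaks, Zfp609, a partner of the cohesin loader Nipbl, 10 and 9, and Zfp292 9 and 9. Zfp865 had 8 in each, Zfp451, a SUMO ligase, 8 and 6, and Zfp507 7 and 7. Zfp407 had 8 peaks in each list and every one of them overlapped. In all, 77 of the 337 marked zinc finger genes (22.8%) had no peak that was in 1 list alone, a share near the 23.0% of all marked protein-coding genes. They included Zfp84 with 6 and 6 and Zfp275 and Zfp800 with 5 and 5 each, the last 3 picked after their values were seen.

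More zinc finger genes had a surplus of entacapone peaks than of vehicle peaks, as did genes at large. Of the 337 marked genes, 175 (51.9%) had more entacapone than vehicle peaks, set against 55.3% of all marked protein-coding genes. A vehicle surplus was present in 60 (17.8%), set against 15.3%, and equal numbers in 102. For 24 marked genes (7.12%) the entacapone list held every peak, set against 21.9% of all, and for 11 (3.26%) the vehicle list did, set against 4.76%. The zinc finger genes thus lay near the background for a surplus with all peaks, and below it for genes marked in the entacapone list alone.

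Zfp831 had the largest surplus, with 9 entacapone peaks and 0 vehicle peaks over a span of 112151 bases on chromosome 2. Its folds lay between 3.57 and 6.34. The 9 peaks formed 3 groups, with 2 at 174610182 to 174614088, 3 at 174643829 to 174646552 and 4 at 174705426 to 174707922, and the widest was 454 bp. Only 2 protein-coding genes of the whole series, Zfp831 included, had at least 9 entacapone peaks and no vehicle peak, and none had the reverse. Without a symbol for the input identifiers, the level of Zfp831 RNA in the inputs is unknown here.

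Zfp106, an RNA-binding protein needed in muscle and motor neurons, had 8 entacapone and 3 vehicle peaks. All of its folds were low, at most 2.18 in the entacapone list and 1.94 in the vehicle list. With equally many top-ranked peaks from each list its counts turned to 0 and 3, since that setting drops entacapone peaks of low fold. Zfp697 had 8 and 4 peaks, and 3 pairs of them overlapped between 98427170 and 98428975 on chromosome 3. Its other entacapone peaks included the 2 start peaks printed above, with folds of 3.09 and 5.83. Zfp219 had 7 and 3 peaks and Zfp629 7 and 3, and every vehicle peak of these 2 genes overlapped an entacapone peak.

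Vehicle surpluses were smaller. Zfp382 had 0 entacapone and 3 vehicle peaks on chromosome 7, at 30133389 to 30133474 (fold 4.53), 30134514 to 30134641 (fold 6.89) and 30139032 to 30139087 (fold 6.25). No other zinc finger gene had 3 or more vehicle peaks and no entacapone peak, whereas 5 had 3 or more entacapone peaks and no vehicle peak: Zfp831, Zfp36, Zfp583, Zfp939 and Zfp956, the last 3 named after their values were seen. Over all 11272 marked protein-coding genes 210 (1.86%) had 3 or more entacapone peaks and no vehicle peak and 9 (0.0798%) the reverse, so the imbalance was a general one. Zfp64 had 5 and 7 peaks, with 4 in each list overlapping, and its 3 vehicle-only peaks lay between 168938505 and 168951651 on chromosome 2, nearer to the gene start than the shared ones. Zfp661 and Zfp871 had 3 and 5 peaks each.

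**Figure D2:**
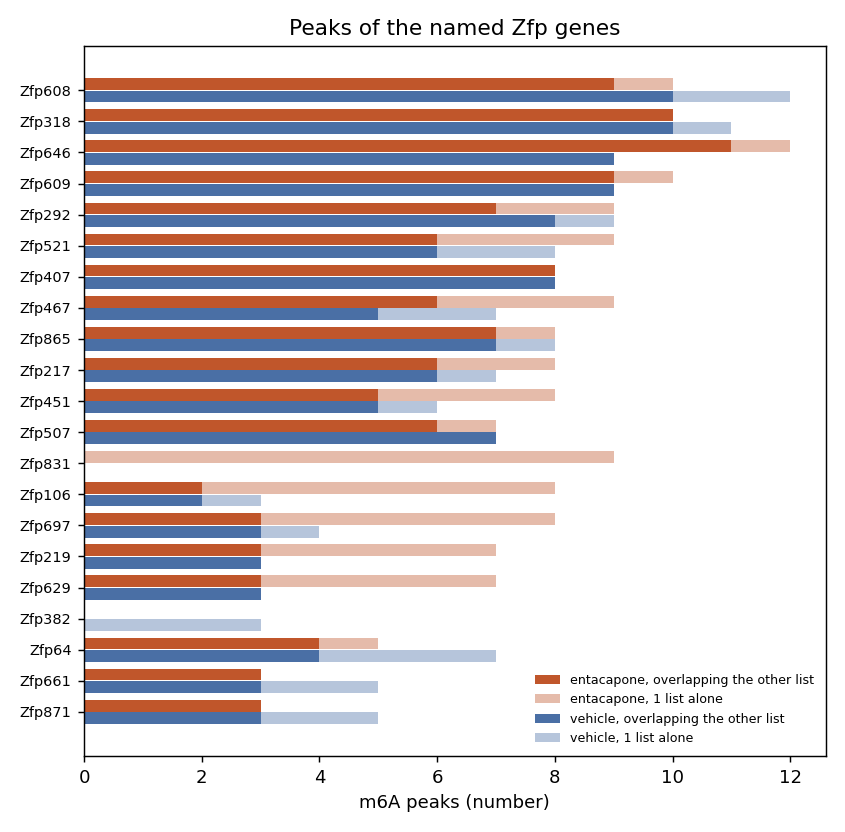
Number of m6A peaks (horizontal axis) in the zinc finger genes with most peaks and with the largest surplus in either list, for entacapone (orange, upper bar) and vehicle (blue, lower bar). Full colour marks peaks that overlap the other list and pale colour peaks in 1 list alone. Zfp831 has 9 pale entacapone peaks and no vehicle bar, and Zfp407 has 8 full-colour peaks in each list.

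**Figure D3:**
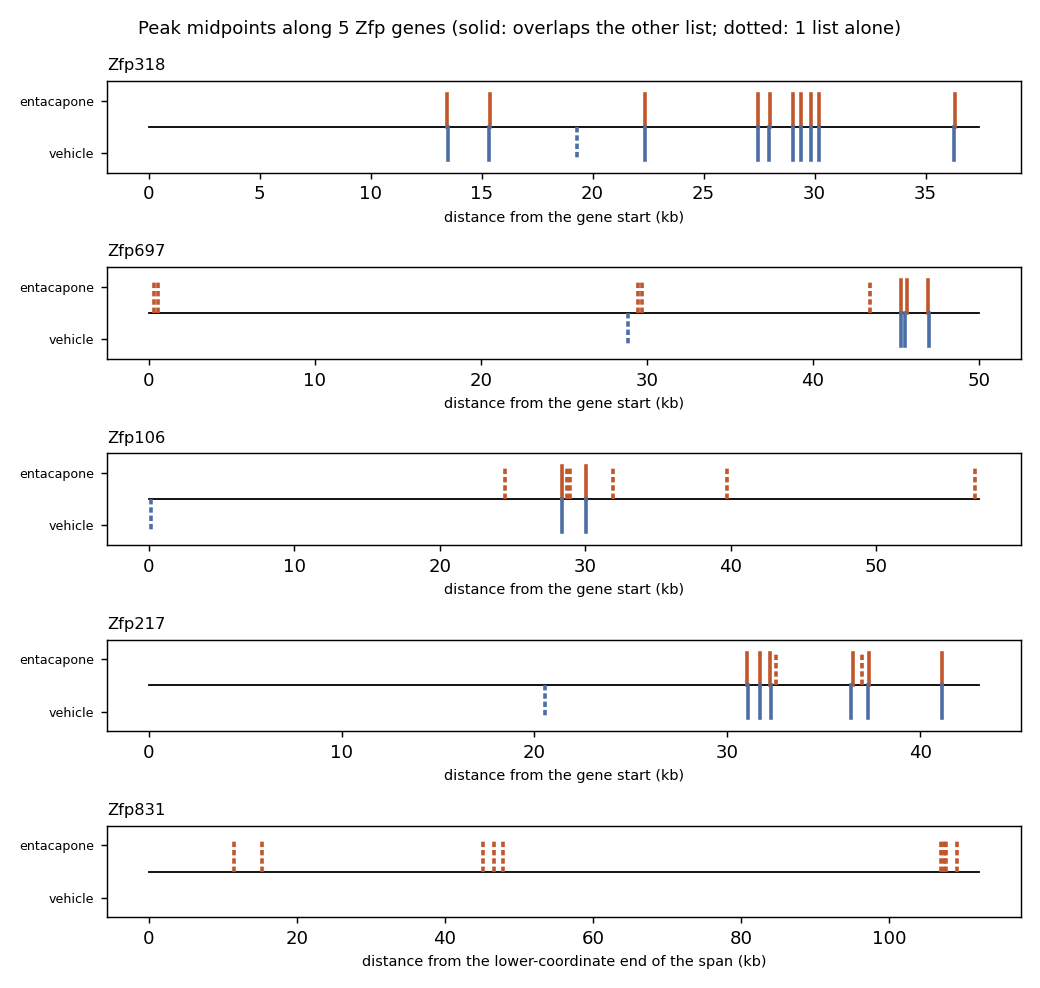
Peak midpoints along 5 genes, by distance in kb from the gene start (Zfp831, whose strand was not used, from its lower-coordinate end), with entacapone above and vehicle below the line. Solid strokes overlap the other list and dotted strokes do not. In Zfp318 the strokes pair up except for 1 vehicle stroke, in Zfp697 the 3 pairs lie near the 3′ end, and in Zfp831 there are 9 entacapone strokes alone.

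Zinc finger regulators of fat cells were all marked. Each of the 10 listed genes had at least 1 peak in both lists, with 58 entacapone and 47 vehicle peaks in total. Peaks in both lists were present in 302 of the 397 zinc finger genes and in 8267 of all 21887 protein-coding genes. The median was 7 entacapone and 4.5 vehicle peaks, beside a median of 2 and 2 over all 397 zinc finger genes. Among the zinc finger genes marked in each list the median was 3 and 2. More entacapone peaks were present in 7 of the 10 listed genes, more vehicle peaks in 1 and equal numbers in 2. An entacapone surplus was present in 51.9% of marked zinc finger genes and 55.3% of all marked genes. Zfp423, which commits precursors to the fat lineage, had 4 and 3 peaks, of which 1 pair overlapped. Zfp521, which opposes that commitment, had 9 and 8 with 6 in each list overlapping. Zfp467, which favours adipocytes over bone-forming cells, had 9 and 7. Zfp516, an activator of brown fat genes, had 7 and 5, and all 5 vehicle peaks overlapped. Zfp638, a partner of C/EBP factors in adipogenesis, had 7 and 4, and Zfp217, an adipogenic factor that also binds the m6A writer METTL3, had 8 and 7. Zfp407, which acts on PPARγ target genes, had 8 and 8, Zfp30 3 and 1, Zfp703 2 and 2 and Zfp395 1 and 2.

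The Zfp217 peaks show how the lists relate within 1 gene. Of its 8 entacapone peaks, 6 overlapped vehicle peaks, and the entacapone peak of highest fold (7.02) at 170120587 to 170120709 on chromosome 2 matched a vehicle peak at 170120594 to 170120680 (fold 3.39). The entacapone-only peaks at 170114684 to 170114763 (fold 2.56) and 170119146 to 170119223 (fold 2.53) lay between shared ones. The vehicle-only peak at 170131080 to 170131149 (fold 6.39) stood apart, 20562.5 bases from the gene start.

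The tristetraprolin family, CCCH proteins that promote decay of mRNAs with AU-rich elements, was thinly marked. Zfp36, tristetraprolin itself, had 3 entacapone and 0 vehicle peaks, with folds from 1.59 to 1.68. Zfp36l1 had 1 peak in each list, which overlapped over much of their widths of 356 and 360 bp. Zfp36l2 had 1 and 0 peaks (fold 1.67), and Zfp36l3 had none. The entacapone peaks of Zfp36 and Zfp36l2 lay close to the lowest fold of any zinc finger peak in that list, 1.57, while the vehicle list began at 1.63 for such peaks. Whether these peaks reflect the lower floor and greater length of the entacapone list was not tested.

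Repressors of imprinted genes and retroelements carried equal totals, 19 entacapone and 19 vehicle peaks, over 8 listed genes. Zfp809, a silencer of proviral DNA, had 5 and 5, with 4 of each overlapping. Zfp445 and Zfp57, which protect imprints, had 5 and 4 and 2 and 1, and Zfp568, a repressor of a placental Igf2 promoter, had 2 and 3. Zfp961 had 4 and 4 and Zfp708 1 and 1. Zfp932 had 0 and 1, at 109996558 to 109996607 on chromosome 5 with a fold of 10.6 and a width of 49 bp, and Zfp110 had none.

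Widely expressed zinc finger regulators without a KRAB box had 95 entacapone and 77 vehicle peaks over 15 genes, with a median of 7 and 4. A surplus of entacapone peaks was present in 10 of them and of vehicle peaks in 2, beside 51.9% and 17.8% of marked zinc finger genes and 55.3% and 15.3% of all marked genes. Zfp687 had 7 and 6 peaks, Zfp462 7 and 4, Zfp148 5 and 5, Zfp281 4 and 4, and Zfp384 4 and 2. Zfp91, a ubiquitin ligase, had 4 entacapone and 1 vehicle peaks without any overlap. All of them also lay in the span of another gene. The entacapone folds were 1.57 to 1.77, the first being the lowest of any zinc finger peak in that list. Zfp143, a promoter-binding activator, and Zfp326, a splicing and elongation factor, had 2 and 1 each, and Zfp207, a spindle protein, had 1 and 0. The lists of genes were drawn up with earlier results of these data known, and their counts are descriptions.

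Most zinc finger peaks had a counterpart in the other list, and those without one were narrower. Of the entacapone zinc finger peaks, 723 (65.4%, interval 62.5 to 68.2) overlapped a vehicle peak by at least 1 bp, and of the vehicle peaks 734 (82.0%, 79.3 to 84.5) overlapped an entacapone peak. The others were 382 entacapone peaks (34.6%) and 161 vehicle peaks, set against backgrounds of 43.0% of the entacapone and 20.5% of the vehicle peaks in all protein-coding genes. The other protein-coding genes had 56.7% (56.1 to 57.3) of entacapone peaks and 79.4% (78.8 to 80.0) of vehicle peaks in overlap. The entacapone share was higher in zinc finger genes than in the rest with all peaks and with equally many top-ranked peaks (66.8% and 59.1%). It was 45.0% and 34.1% at a fold of at least 4, and 64.3% and 58.2% at 100 bp or wider. The fold limit kept 393 of 895 vehicle peaks in zinc finger genes and 6132 of 19707 in the rest, and the width limit 599 and 11719. Entacapone peaks of the rest thus lost a larger part of their possible partners by construction. No difference in overlap is read from the fold and width settings. The vehicle interval included the share of the rest with all peaks. With equally many top-ranked peaks 70.8% of vehicle zinc finger peaks overlapped, against 56.9% in the rest. That setting drops only entacapone peaks, by fold, and kept 936 of 1105 in zinc finger genes and 18668 of 27283 in the rest. Vehicle peaks of the rest thus lost a larger part of their possible partners by construction, and no difference in overlap is read from the 70.8% and 56.9%. The vehicle shares were 39.2% and 39.7% at a fold of at least 4 and 77.1% and 79.1% at 100 bp or wider, where the entacapone list was filtered too.

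Width went with overlap. Shared entacapone peaks had a median width of 165 bp and entacapone-only peaks of 87 bp, and for vehicle these were 150 and 91 bp. In the other protein-coding genes they were 154 and 85 bp for entacapone and 133 and 80 bp for vehicle. Among peaks under 100 bp, 42.1% of the 401 entacapone and 67.6% of the 296 vehicle peaks overlapped, where the rest had 34.5% and 64.2%. At 200 bp or wider, 90.9% of the 308 entacapone and 98.0% of the 252 vehicle peaks did, near the 89.8% and 97.4% of the rest. A wide peak meets another by position alone more readily than a narrow one, and that part was not tested. A few wide peaks met several narrower ones: 31 of 1105 entacapone peaks overlapped at least 2 vehicle peaks and 17 of 895 vehicle peaks at least 2 entacapone peaks. In the other protein-coding genes these counts were 531 of 27283 and 363 of 19707. The widest zinc finger peaks were a 965 bp entacapone peak in Zfp639 (fold 1.95) and a 948 bp vehicle peak in Zfp866 (fold 5.46), which spanned 4 entacapone peaks.

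Over all widths the median zinc finger peak was 127 bp wide in the entacapone list and 132 bp in the vehicle list, against 113 and 116 bp in the other protein-coding genes. The median fold was 3.40 in the entacapone list, where the rest had 2.93, and 3.80 in the vehicle list, where the rest had 3.17. A fold of at least 4 was reached by 30.0% of entacapone and 43.9% of vehicle zinc finger peaks, against 25.9% and 31.1% in the rest. Input coverage under each peak was not analysed here. The highest folds of shared entacapone peaks were 9.94 in Zfp366, 9.24 in Zfp764, 9.05 in Zfp746, 8.76 in Zfp697 and 8.71 in Zfp462. The highest of shared vehicle peaks was 18.7 in Zfp507 for vehicle, at 35802878 to 35802978 on chromosome 7 with a midpoint 72 bases from the gene start, followed by 9.60 in Zfp316, 9.09 in Zfp451, 8.97 in Zfp442 and, tied, 8.66 in Zfp54, Zfp521 and Zfp995. The Zfp507 peak of fold 18.7 overlapped an entacapone peak of fold 3.34. Both also lay in the span of another gene, whose reads cannot be told apart here from those of Zfp507. Among peaks in 1 list alone the highest were in Zfp974 (9.16), Zfp940 (7.94), Zfp639 (7.29), Zfp607b (7.28) and Zfp773 (7.15) for entacapone, and in Zfp97 (13.2), Zfp932 (10.6), Zfp521 (10.4), Zfp977 (7.93) and Zfp459 (7.18) for vehicle.

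The surplus of entacapone peaks depended on the limit set on the fold. With all peaks the zinc finger genes held 1.23 entacapone peaks per vehicle peak, and the other protein-coding genes 1.38. At a fold of at least 4 the zinc finger counts were 331 entacapone and 393 vehicle peaks, a ratio of 0.842, while the rest kept 7058 and 6132, a ratio of 1.15. At that fold 74 zinc finger genes (29.1%) had more entacapone peaks, set against 43.6% of all protein-coding genes marked there, and 120 (47.2%) had more vehicle peaks, set against 33.9%. These counts restate that 30.0% of entacapone and 43.9% of vehicle zinc finger peaks reached that fold, against 25.9% and 31.1% in the rest. The scaling of the fold in each list is not stated, so the turn is no separate result. With equally many top-ranked peaks from each list the zinc finger ratio was 1.05 and that of the rest 0.947, so the order of these ratios turned. That setting kept every vehicle peak and dropped entacapone peaks by fold alone, leaving 936 of 1105 in zinc finger genes and 18668 of 27283 in the rest. The turned order thus restates the higher folds of zinc finger peaks and is no separate result. A surplus in zinc finger genes is thus not a property of every part of the lists. The entacapone list was 1.39 times as long as the vehicle list, and the entacapone input was the deeper one, with 33164576 counts against 24548212 in vehicle, or 1.35 times as many. The part of depth in the peak numbers was not tested, and IP depth is not given by the files used here.

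Peaks of zinc finger genes lay at a distance before the 3′ end. Strand was known for 331 of the 397 genes, with 895 entacapone and 713 vehicle peaks. The median distance from the 3′ end of the gene span was 3184.5 bases in the entacapone list and 3062 in the vehicle list, against 5198.5 and 4756.25 in the other protein-coding genes. The zone from 1 to 4 kb before the end held 46.0% of entacapone peaks (interval 42.7 to 49.4) and 47.3% of vehicle peaks (43.5 to 51.0). In the other genes it held 27.7% (27.1 to 28.3) and 28.7% (28.0 to 29.4). The last 1 kb held 12.8% of entacapone (10.7 to 15.2) and 13.7% of vehicle peaks (11.3 to 16.5), while the rest had 17.6% (17.1 to 18.1) in the entacapone list and an interval of 17.4 to 18.6 in the vehicle list.

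The same pattern held within genes of like span and at a high fold. Among spans between the quartiles the zone from 1 to 4 kb held 49.8% of entacapone and 54.4% of vehicle zinc finger peaks, against 29.7% and 32.0% in the other genes. At a fold of at least 4 it held 43.7% and 45.3%, against 21.8% and 23.5%. The stretch from 70% to 90% of the span held 41.1% of entacapone and 41.5% of vehicle zinc finger peaks, and the rest 20.8% and 21.8%. The last 10% of the span held 24.8% and 27.5%, and the rest 36.0% and 37.2%. Exons, stop codons and UTRs are not in the tables used here, so the zone is a distance on the genome and is not placed on a transcript. Where exons and read coverage lie in these genes cannot be told apart from where m6A lies.

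**Figure D4:**
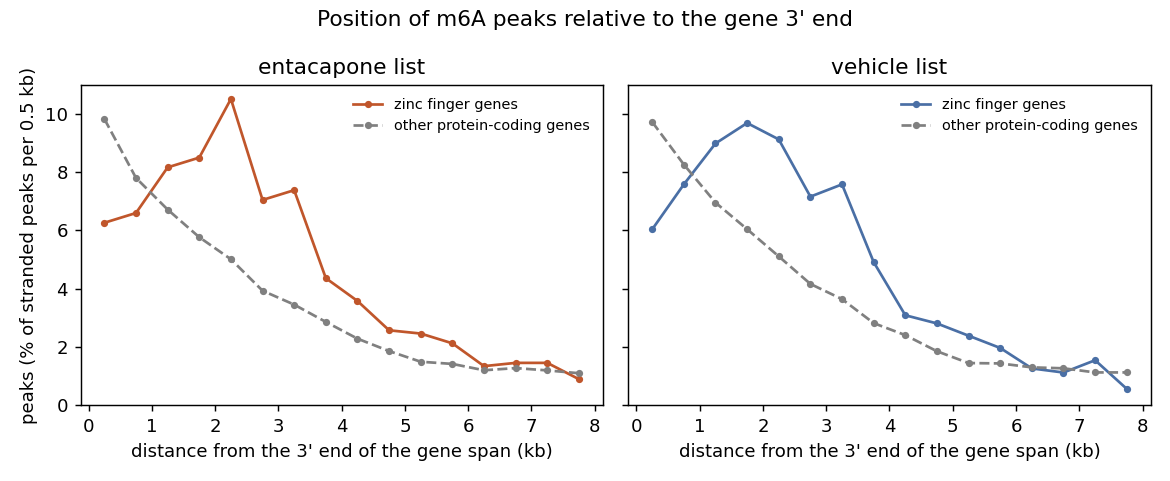
Share of peaks (percent per 0.5 kb) by distance from the 3′ end of the gene span (kb), for the entacapone list (left panel) and the vehicle list (right panel). Coloured lines are zinc finger genes and dashed grey lines the other protein-coding genes, and peaks farther than 8 kb are in the total but not drawn. Zinc finger peaks are most frequent at 2 to 2.5 kb in the entacapone list (10.5%) and at 1.5 to 2 kb in the vehicle list (9.68%), while the grey lines are highest in the last 0.5 kb (9.82% and 9.71%).

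A smaller share of the peaks in 1 list than of the shared ones lay in the zone before the end, but the intervals overlapped. Of shared peaks, 49.1% in each list (45.0 to 53.3 in both) lay 1 to 4 kb before the end. The share was 40.5% of the entacapone-only (35.1 to 46.1) and 38.9% of the vehicle-only peaks (30.5 to 47.8). The first 10% of the span held 10.6% of entacapone-only and 13.0% of vehicle-only peaks, but 4.36% and 4.47% of the shared ones. Within 1 kb of the start lay 10.3% of entacapone-only peaks (7.18 to 14.1) and 3.48% of shared entacapone peaks (2.14 to 5.33). For vehicle these shares were 8.40% (4.27 to 14.5) and 3.61% (2.25 to 5.46), with intervals that overlapped. The same split was not made in the other protein-coding genes, so whether it is general is not known here. Neighbouring peaks of a gene were close together, with a median of 731 bases between midpoints in the entacapone list and 740 in the vehicle list, against 1712 and 1409 in the other protein-coding genes. No more than 1 kb separated 61.6% of neighbours in entacapone and 62.2% in vehicle, where the rest had 41.5% and 44.0%.

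Zinc finger genes that sit in chromosome clusters carried peaks about as often as those outside, which include neighbouring pairs. A cluster was taken as at least 3 Zfp genes with gaps of at most 500 kb, which gave 34 clusters with 239 genes. These held 624 entacapone and 509 vehicle peaks, 2.61 and 2.13 per gene, and 158 genes outside clusters held 481 and 386, or 3.04 and 2.44 per gene. A peak was present in 84.5% of clustered genes in the entacapone list and 79.5% in the vehicle list, and in 78.5% and 77.8% of the others. The ratio of entacapone to vehicle peaks was 1.23 in clusters and 1.25 outside. The zone from 1 to 4 kb before the end held 50.0% of entacapone and 51.2% of vehicle peaks in clusters, and 40.2% and 41.3% outside.

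The clusters differed among themselves. The one with most peaks ran from Zfp640 to Zfp273 on chromosome 13 (66670274 to 67827000), where 23 of 24 genes were marked in each list, with 68 entacapone and 47 vehicle peaks; Zfp87 led it with 6 and 4. The chromosome 17 cluster from Zfp160 to Zfp13 (21008941 to 23599755) had 54 and 48 peaks over 23 genes, with Zfp52 at 5 and 4. On chromosome 7 the 15 genes from Zfp84 to Zfp146 (29768552 to 30169775) had 48 and 42, and the 10 genes from Zfp553 to Zfp646 (127233061 to 127885996) had 49 and 38, or 4.90 and 3.80 per gene. The 9 genes from Zfp786 to Zfp775 on chromosome 6 had 39 and 27 peaks, led by Zfp467. The second chromosome 17 cluster, from Zfp871 to Zfp414, had slightly fewer entacapone than vehicle peaks, 29 and 31. The other 3 with fewer, named for that, ran from Zfp141 to Zfp819 (21 and 22) and from Zfp628 to Zfp580 (18 and 19) on chromosome 7, and from Zfp970 to Zfp931 (8 and 10) on chromosome 2.

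Some clusters of tandem copies held few peaks or none. In the chromosome 4 cluster from Zfp990 to Zfp933 (145510759 to 147849126), 6 of 16 genes had an entacapone peak and 5 a vehicle peak, with 14 and 7 peaks, of which Zfp933 held 5 and 3. The 3 genes from Zfp968 to Zfp966 on chromosome 2 had none. These are sets of closely related copies, in which reads may fit several genes. How the authors treated such reads is not given in the sources used here, so an empty copy is not evidence of an unmarked transcript, and peaks of near-identical genes are uncertain. In all, 60 zinc finger genes had no peak in either list (15.1%, where the other protein-coding genes had 49.1%), 33 of them in clusters. The 60 included Zfp42, the pluripotency marker Rex1, and Zfp536, a gene of the nervous system, both named after their values were seen.

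**Figure D5:**
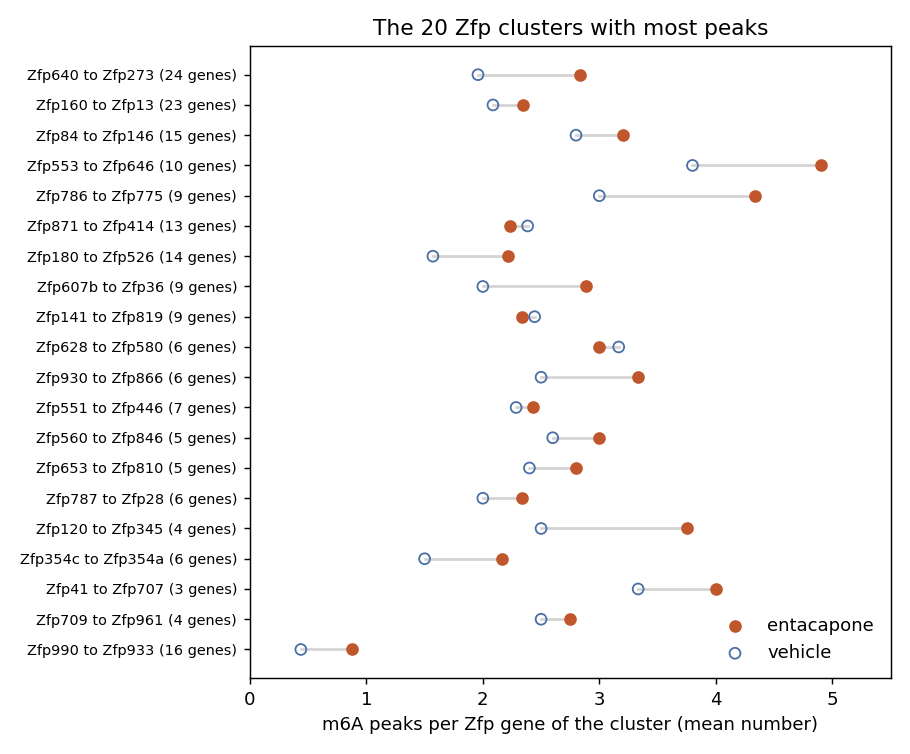
Mean number of m6A peaks per zinc finger gene (horizontal axis) in the 20 clusters with most peaks, ordered from most to fewest, for entacapone (filled orange) and vehicle (open blue), with a grey line joining the values of a cluster. Entacapone lies to the right in all of them but 3, and the Zfp990 to Zfp933 cluster is lowest, at 0.875 entacapone and 0.438 vehicle peaks per gene.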

How the data were processed

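Inputs and m6A IPs of inguinal fat were analysed, 1 library of each per treatment. The authors deposited raw read counts per Ensembl gene identifier for the inputs, with no normalization. For each IP the authors deposited a peak list whose last column has no name; from its values it was taken as a linear fold. How the authors made this deposited fold is not stated; it is read as a ratio of IP over input, with no further scaling here. The submitters' processing notes name TopHat2 2.1.1, MACS2 and mm10 without their roles. The peak threshold, the counting tool and whether starts count from 0 are nowhere stated in the sources used here. Width is listed end minus listed start.

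Peaks were placed by midpoint in RefSeq gene spans (GRCm38.p6), protein-coding first, then the shorter span. Strand and start windows came from a RefSeq promoter table, which held 331 of 397 Zfp genes. An overlap of 1 bp counted as shared. Placement and overlap were tested on simulated data. Python 3.11.15, pandas 2.3.3 and scipy 1.17.1 were used. The genes named are the 12 with most peaks, the 5 with the largest surplus in each direction, the 5 shared and 5 unshared peaks of largest fold per list, 4 fixed gene lists, and up to 6 leading clusters. The start-window peaks, the widest peaks, the genes of the other clusters and those marked so in the text were chosen after their values were seen, as was the comparison of genes of like span. The members and lists were chosen with earlier results of these data known. The input comparison was not run, because identifiers could not be paired with symbols, so the tissue was not checked against cell type markers, and protein features were not analysed here. Only the input totals are used. Alternatives were a fold of at least 4, equal numbers of top-ranked peaks, a width of at least 100 bp, other placement, symbol, overlap, distance and cluster rules.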

Additional observations from a re-analysis of the deposited data

How the results depend on the processing

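Of 55 alternative values, 36 stayed within 1.5 times the reported count or ratio or inside the reported interval, 18 moved and 1 turned. At a fold of at least 4 the zinc finger peaks numbered 331 for entacapone and 393 for vehicle, the ratio turned to 0.842, 195 genes had an entacapone peak, 45.0% of entacapone and 39.2% of vehicle peaks overlapped, 8.75% and 11.1% lay within 1 kb of the 3′ end, and 63.1% of vehicle peaks lay in clusters; fewer peaks enter by construction. With equally many top-ranked peaks 70.8% of vehicle peaks overlapped and 59.9% of entacapone peaks lay in clusters. At 100 bp or wider 704 entacapone peaks remained and 77.1% of vehicle peaks overlapped. A reciprocal overlap of at least 50% of each peak left 47.6% of entacapone and 58.8% of vehicle peaks as shared. Within 2 kb of the 3′ end lay 29.5% and 32.3%, and gaps of at most 200 kb put 46.2% and 46.4% of peaks in clusters. Placing peaks by any overlap with a span, symbols without suffix and gaps of 1000 kb moved no value past these margins. No paired analysis was possible because each group has 1 library. The depth of the IP libraries is not given by the files used here, which limits what the number of peaks can show. The planned input-level alternatives (DESeq2 size factors, no filter on low counts, a wider interval) were not run, since the input comparison was not.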

Other observations

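Chromosome 7 held 93 of the 397 zinc finger genes (23.4%) and 260 entacapone (23.5%) and 215 vehicle (24.0%) of their peaks, so peaks followed the genes there. Chromosome 4 had fewer than its genes, with 6.80% of the genes and 5.07% of entacapone and 4.02% of vehicle peaks, and chromosome 18 more, with 2.77% of the genes and 5.07% and 5.81% of the peaks. The highest ratio of entacapone to vehicle peaks on a chromosome with at least 20 of these genes was 1.56, on chromosome 4, and the lowest 1.07, on chromosome 17. The spans of other genes also covered 85 entacapone (7.69%) and 62 vehicle (6.93%) zinc finger peaks, and the kit named in the labels does not mark strand, so reads of such pairs cannot be told apart. These values have no replicate and are given as a description of the lists.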
